A study of Rattus norvegicus with 6 samples.

Results

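Peroxisomes are small organelles that shorten very long-chain and branched fatty acids, break down hydrogen peroxide and carry out the opening steps of ether lipid synthesis. Their enzymes are made in the cytosol and brought in by peroxins, the products of the Pex genes. In heart muscle most fatty acids are burned in mitochondria, and peroxisomes are known there for handling the chains that mitochondria cannot take and for supplying plasmalogens, ether lipids that are abundant in cardiac membranes. The genes described here were chosen by name from the table of gene counts, as the Pex genes and a list of peroxisomal transporters and lipid enzymes. Of 21648 genes in the table, 34 matched. The names Scp2 and Pecr matched no gene and are not analysed here, and neither are Pex13 and Pex19.

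The cells were ventricular myocytes of newborn rats, contracting heart muscle cells taken from wild-type pups on postnatal day 3 and cultured after a pre-plating step that removes attached fibroblasts and with bromodeoxyuridine, which limits dividing cells. The strain is not given. Cultures received 10 µM of 915, named in the design text as an ERR agonist, or an equal volume of the solvent DMSO, for 72 h, with 3 libraries per group. ERRs, the estrogen-related receptors, are nuclear receptors that switch on genes of energy metabolism. The labels call the libraries biological replicates without saying whether each came from its own isolation, so the spread behind each p-value is that between libraries and may hold a technical share. Levels are in CPM (counts scaled by the authors' total for each library). Fold changes are 915 over DMSO and come from edgeR's quasi-likelihood test. A gene was called when its adjusted p over all genes tested was under 0.05. The fit adds TMM, a further scaling between libraries, so fitted log2 fold changes lie slightly above those of the printed CPM. Their median over all genes tested was -0.01 with TMM and -0.06 with the authors' totals alone.

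The tables hold 30639244 to 40010826 counts per library, and the limit that a count of 0 allows, 3 counts, is 0.0698 to 0.0917 CPM. This covers counting error only. All 8 heart muscle markers were called higher with 915, and their summed level was 19166 to 20216 CPM in the DMSO libraries and 27010 to 27286 CPM in the 915 libraries. Of 9 fibroblast markers 6 were lower and 2 higher, and their sum went from between 21051 and 21920 CPM to between 11113 and 11766 CPM. Smooth muscle and pericyte markers were lower in 4 of 5 cases (sums of 1630 to 1773 and 687 to 734 CPM), macrophage markers in 4 of 7 (218 to 234 and 115 to 139 CPM), and endothelial markers in 4 of 7 with 1 higher (70.8 to 74.1 and 56.5 to 57.3 CPM). No marker in these lists was at 0 in every library. Over all genes tested 24.3% were called higher and 25.5% lower. Liver cell markers, which matter because liver is rich in peroxisomes, summed to 5.24 to 6.10 CPM with DMSO and 4.49 to 5.24 CPM with 915, with 1 of 3 tested lower. Adipocyte markers summed to 10.8 to 14.7 and 10.6 to 12.7 CPM, with 1 of 3 tested higher and 1 lower. Erythroid markers were higher in 2 of 2 tested cases, with sums of 1.77 to 4.05 and 4.55 to 6.97 CPM. In these bulk samples fewer cells of a type and less RNA per cell cannot be told apart, and the part of this shift in the peroxisomal results was not tested.

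With 915 the peroxisomal enzymes of fatty acid breakdown and catalase were mostly higher, the tested Pex genes were higher or did not pass, and a few genes of very long-chain transport, acyl export and ether lipid synthesis were lower. Of 33 members tested 21 were called, beside 49.8% of all 14253 genes tested. Of these 17 (51.5% of the 33) were higher and 4 (12.1%) lower, beside 24.3% higher and 25.5% lower among all genes. The median log2 fold change was 0.21, against -0.01 over all genes tested. The changes were small. Of the 33, 6 were called with a difference of at least 1.5-fold, a share that matches the 18.2% of all genes tested, and the largest difference was 2.14-fold. All 915 libraries were above all DMSO libraries in 18 of the 33, beside 23.9% of all genes tested, and below them in 4, beside 32.8%. The remaining member, Pex5l, was too scarce to be tested.

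Read out as a group sum, the 34 genes held 0.137%, 0.142% and 0.143% of the authors' library totals in DMSO libraries 1 to 3. In 915 libraries 1 to 3 they held 0.173%, 0.174% and 0.171%. Every 915 library was above every DMSO library, with sums of 1409 ± 33.5 CPM for DMSO and 1725 ± 16.4 CPM for 915 (SD, n = 3 each). Ech1, Cat, Phyh and Hsd17b4 supplied 72.4% of this difference, and without them the sum was 663 ± 4.75 CPM with DMSO and 750.1 ± 4.13 CPM with 915. The sum is in counts and not per gene length, so long and abundant transcripts weigh most. Over the same libraries the summed heart muscle markers were at 1.38 times their DMSO mean and the peroxisomal genes at 1.22 times.

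**Figure D1:**
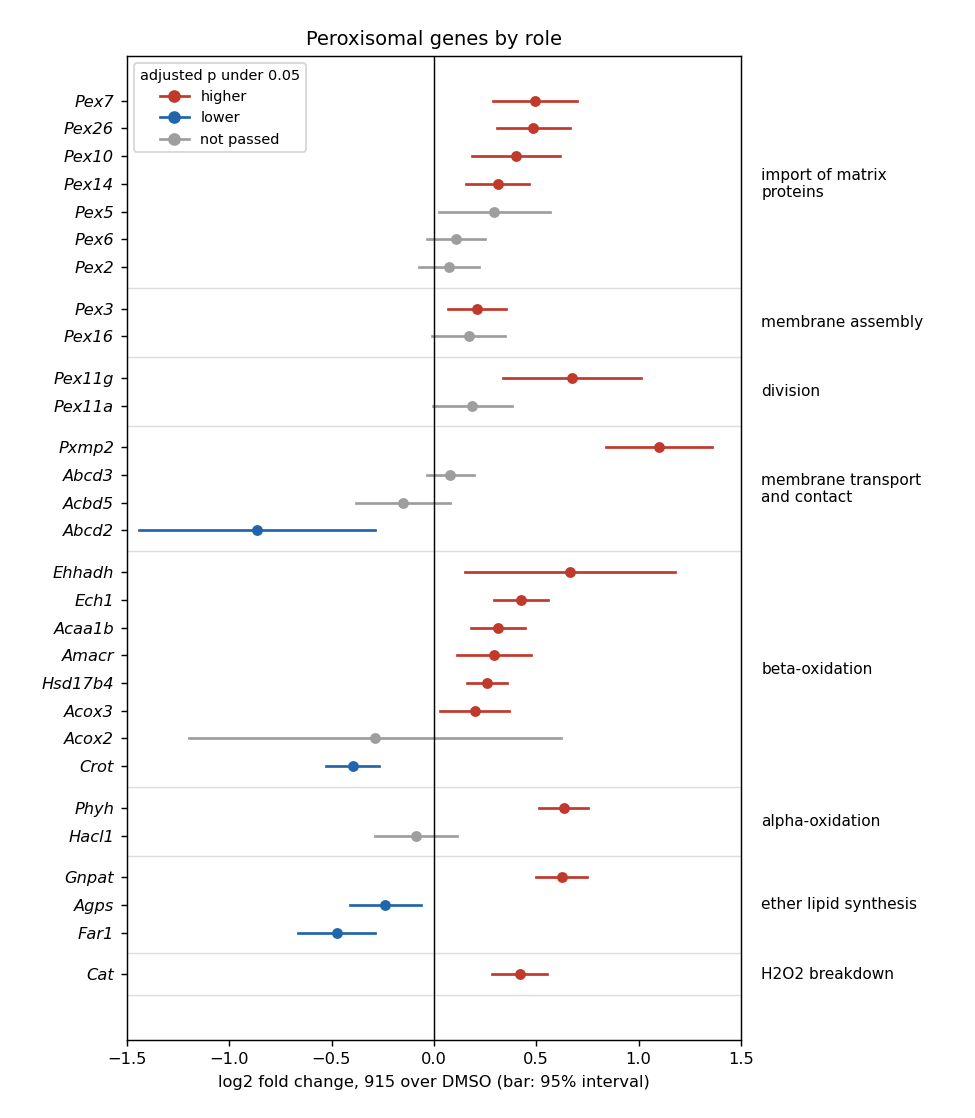
Log2 fold change of the 29 tested peroxisomal genes described one by one, 915 over DMSO, grouped by role, with 95% intervals from the edgeR fit on 3 libraries per group. Red genes were called higher, blue genes lower, and grey genes did not pass; called genes lie between -0.86 for Abcd2 and 1.10 for Pxmp2.

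Promoter windows, 250 bases before to 50 after the gene start, were taken from RefSeq on the rat assembly GRCr8 and were given for 26 of the 34 genes. Their gene starts may differ from those of the build used for counting. Both strands were searched for TCAAGGTCA, the letters known to bind ERRs best, for its shorter core AAGGTCA, and for DR1, the direct repeat of AGGTCA with 1 base between that PPAR receptors bind, with at most 2 of its 12 fixed letters different. TCAAGGTCA was in none of the 26 windows and in 0.441% of the 27457 genes with a window. AAGGTCA was in 4 (15.4%), beside 4.83% of all genes. Those 4 were Pex11g and Amacr, called higher, and Abcd2 and Agps, called lower. The repeat was in Cat and Amacr (7.69%, beside 4.06% of all genes), each with 2 letters different. The 250 bases upstream are shown for the 4 genes with a match there, 5′ to 3′ on the gene's strand, with the matched letters in capitals. In Amacr the repeat and the core overlap, and in Agps, not shown, the match lies after the gene start, at bases 44 to 50. A match describes the letters only.
Pex11g (GRCr8 chr12:6310387-6310636, minus strand, AAGGTCA from -144 to -138): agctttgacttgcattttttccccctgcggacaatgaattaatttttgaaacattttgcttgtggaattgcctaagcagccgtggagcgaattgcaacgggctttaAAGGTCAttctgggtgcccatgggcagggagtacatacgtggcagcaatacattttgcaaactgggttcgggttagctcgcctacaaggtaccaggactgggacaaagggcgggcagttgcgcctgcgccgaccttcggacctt
Amacr (GRCr8 chr2:61673085-61673334, plus strand, repeat from -208 to -196): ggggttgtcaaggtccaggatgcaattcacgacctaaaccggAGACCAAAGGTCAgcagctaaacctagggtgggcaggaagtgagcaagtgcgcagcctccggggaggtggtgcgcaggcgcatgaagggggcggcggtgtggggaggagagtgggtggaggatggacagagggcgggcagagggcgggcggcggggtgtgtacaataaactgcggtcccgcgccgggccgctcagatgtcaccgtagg
Cat (GRCr8 chr3:110329527-110329776, minus strand, repeat from -169 to -157): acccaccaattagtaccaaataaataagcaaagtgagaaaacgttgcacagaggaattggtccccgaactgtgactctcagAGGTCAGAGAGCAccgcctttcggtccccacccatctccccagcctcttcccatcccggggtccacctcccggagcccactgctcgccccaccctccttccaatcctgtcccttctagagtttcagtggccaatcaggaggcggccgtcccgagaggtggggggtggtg
Abcd2 (GRCr8 chr7:124191203-124191452, minus strand, AAGGTCA on the opposite strand from -185 to -179): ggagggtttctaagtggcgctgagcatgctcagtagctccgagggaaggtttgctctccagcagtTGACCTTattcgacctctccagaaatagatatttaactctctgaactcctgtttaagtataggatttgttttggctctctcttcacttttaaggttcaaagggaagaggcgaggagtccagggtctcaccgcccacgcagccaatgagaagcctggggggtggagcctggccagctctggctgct

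Proteins enter peroxisomes through soluble receptors that dock at the membrane and are then recycled. Of 7 genes of this import route described here 4 were called higher and 0 lower. Pex7, the receptor for enzymes that carry an N-terminal signal, was at 8.89, 8.45 and 8.86 CPM in DMSO libraries 1 to 3 and at 12.8, 11.95 and 10.9 CPM in 915 libraries 1 to 3. Its groups did not overlap, and the 915 level was 1.41-fold higher (log2 0.49 ± 0.0961, SE; edgeR adjusted p = 6.77e-04). Pex5, the receptor for the far more common C-terminal signal, was at 5.35, 5.03 and 5.06 CPM with DMSO and 6.07, 6.85 and 5.46 CPM with 915. All 3 of its 915 libraries were above its DMSO libraries, but it did not pass (log2 fold change 0.30, 95% interval 0.02 to 0.57, edgeR adjusted p = 0.0673). Without 915 library 3 it did (0.37, edgeR adjusted p = 0.0366, within a range of 0.0366 to 0.212 over 13 alternatives). The docking protein gene Pex14 was at 32.2, 33.8 and 28.3 CPM with DMSO and 39.0, 36.9 and 37.5 CPM with 915, again without overlap (0.31 ± 0.0716, edgeR adjusted p = 2.28e-03).

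The receptors are taken back out of the membrane by ubiquitin ligases, Pex2 and Pex10 among them, and by ATPases such as Pex6, which Pex26 anchors. Of these 4 genes Pex10 and Pex26 were called, both higher. Pex10 rose 1.32-fold, from 9.61, 8.64 and 7.997 CPM to 11.3, 10.6 and 11.6 CPM. Pex26 rose by 0.48 on the log2 scale, from 16.5, 17.8 and 14.6 CPM to 22.8, 21.7 and 21.7 CPM. In both genes every 915 library was above every DMSO library (edgeR adjusted p = 4.29e-03 and 2.36e-04). Pex2 and Pex6 did not pass, and their 95% intervals on the log2 scale were narrow (-0.07 to 0.22 and -0.03 to 0.25). A difference between the called genes and these was not tested.

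Pex3 and Pex16 place proteins in the peroxisomal membrane. Pex3 was at 23.3, 21.7 and 22.7 CPM with DMSO and 25.1, 25.1 and 25.6 CPM with 915, a 1.16-fold difference without overlap (edgeR adjusted p = 0.0153). With the authors' library totals and no further scaling it no longer passed (log2 fold change 0.16, edgeR adjusted p = 0.0568; range over 13 alternatives 0.0132 to 0.0568). Pex16 did not pass (14.6 to 16.4 and 15.9 to 17.6 CPM, 95% interval -0.01 to 0.35).

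The Pex11 genes encode proteins that lengthen and divide peroxisomes. Pex11g was called higher, at 2.54, 2.62 and 2.46 CPM with DMSO and 3.64, 4.28 and 3.86 CPM with 915 (log2 fold change 0.67 ± 0.156, edgeR adjusted p = 2.48e-03). All 915 libraries were above all DMSO libraries, at levels of 97 to 157 counts. Pex11a, the form known to be induced by PPAR activators in liver, was at 12.03, 13.7 and 12.4 CPM with DMSO and 13.2, 14.3 and 14.4 CPM with 915. Its groups overlapped and it did not pass (0.19 ± 0.0895, edgeR adjusted p = 0.0958), although it did without DMSO library 2 (0.25, edgeR adjusted p = 0.0414; range over 13 alternatives 0.0414 to 0.275). Over the 11 tested Pex genes described here, 6 were called higher and 0 lower. Pex5l, whose name comes from its likeness to Pex5 but whose product is known for placing pacemaker channels, had 4, 19 and 0 counts with DMSO and 0, 2 and 1 with 915.

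**Figure D2:**
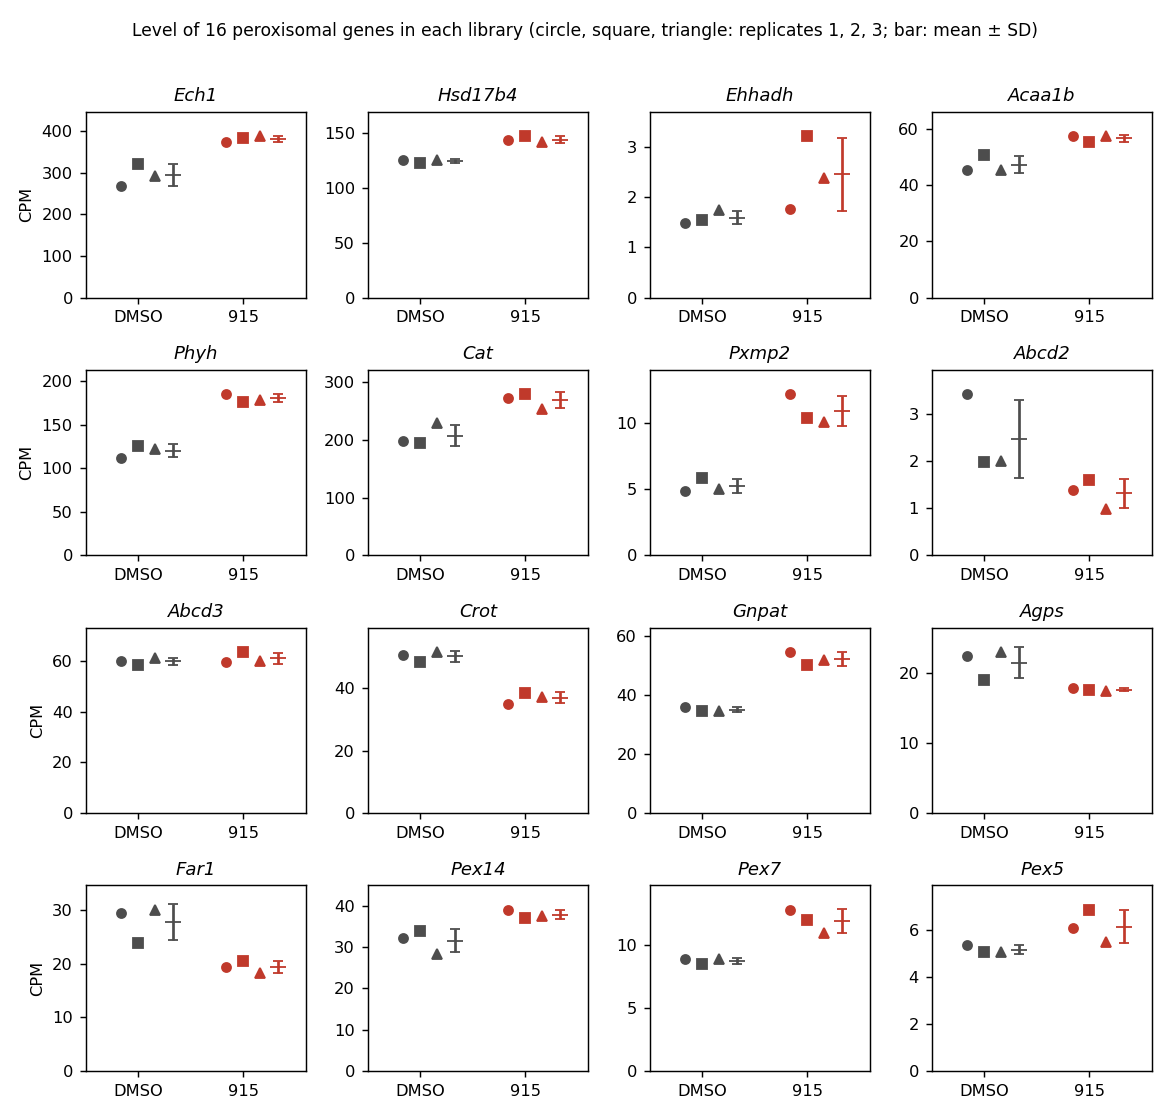
CPM of 16 peroxisomal genes in each library, on axes that start at 0; grey marks are the 3 DMSO libraries, red marks the 3 libraries with 915, and bars show mean ± SD. Phyh lies at 112 to 126 CPM with DMSO and 176 to 185 CPM with 915, while Abcd3 overlaps between the groups.

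Fatty acids reach the inside of the organelle through ABC transporters of the Abcd family. Abcd3, which carries branched and dicarboxylic acyl chains, was at 60.0, 58.2 and 61.1 CPM with DMSO and 59.5, 63.6 and 60.1 CPM with 915. The groups overlapped, and the 95% interval of the log2 fold change was -0.04 to 0.19. Abcd2, which prefers very long and polyunsaturated chains, was scarce, at 3.42, 1.98 and 2.00 CPM with DMSO and 1.39, 1.59 and 0.984 CPM with 915. Every 915 library was below every DMSO library, and the log2 fold change was -0.86 ± 0.269 (edgeR adjusted p = 0.0156). DMSO library 1 was the highest, and without it the value was -0.56 and did not pass (edgeR adjusted p = 0.125). Nor did it pass without 915 library 3 (-0.69, edgeR adjusted p = 0.0717; range over 13 alternatives 4.90e-03 to 0.125).

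Pxmp2, a channel of the peroxisomal membrane for small solutes, had the largest fold change among the members. It was at 4.89, 5.83 and 5.01 CPM in the DMSO libraries and at 12.2, 10.4 and 10.1 CPM in the 915 libraries. The lowest 915 library was well above the highest DMSO library, and the log2 fold change was 1.10 ± 0.120 (edgeR adjusted p = 3.42e-06), with 1.01 to 1.19 over 13 alternatives. Its promoter window held none of the motifs searched. Acbd5, which tethers peroxisomes to the endoplasmic reticulum and binds very long-chain acyl-CoA, did not pass (17.0, 13.4 and 16.9 CPM against 13.3, 15.4 and 12.4 CPM, 95% interval -0.38 to 0.08).

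Inside the organelle, beta-oxidation starts with an acyl-CoA oxidase, goes on with a bifunctional enzyme and ends with a thiolase. Of 8 genes of this pathway and its side steps described here 6 were called higher and 1 lower. Acox3, an oxidase for branched chains, was at 18.1, 20.4 and 18.9 CPM and at 20.5, 20.7 and 22.6 CPM. Its groups were apart by a small margin, and its call was marginal (0.20 ± 0.0787, edgeR adjusted p = 0.0481): it was lost under 10 of 13 alternatives, 5 of them the removal of DMSO library 1 or 3 or of any 915 library, with edgeR, limma or DESeq2 adjusted p from 0.0184 to 0.179. Acox2, the oxidase for bile acid intermediates, was near the limit of what could be compared, at 0.628 to 1.11 CPM with DMSO and 0.288 to 1.19 CPM with 915 (95% interval -1.20 to 0.62).

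The bifunctional enzymes come in 2 forms. Hsd17b4, which serves very long and branched chains, was at 125.3, 122.8 and 125.2 CPM with DMSO and 143, 147 and 142 CPM with 915, a 1.20-fold difference without overlap (0.26 ± 0.0450, edgeR adjusted p = 2.59e-04). Ehhadh, the form that PPAR activators induce in rodent liver and that serves dicarboxylic acids, was at 1.49, 1.54 and 1.75 CPM with DMSO and 1.75, 3.21 and 2.39 CPM with 915. Its 915 libraries were spread widely, and the lowest of them was just above the highest DMSO library (0.66 ± 0.239, edgeR adjusted p = 0.0328). Without 915 library 2 the value was 0.43 and did not pass (edgeR adjusted p = 0.162), and the call was also lost without DMSO library 1 or 2 or 915 library 3 (range over 13 alternatives 0.0101 to 0.162).

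Acaa1b, the peroxisomal thiolase, was at 45.4, 50.7 and 45.4 CPM with DMSO and 57.3, 55.2 and 57.3 CPM with 915 (1.24-fold, edgeR adjusted p = 7.84e-04). All 915 libraries were higher. RefSeq gives the Entrez number of this row the symbol Acaa1a, and near-identical thiolase copies may share or lose reads, so which copy was counted is uncertain. Amacr, the racemase that makes branched chains fit for oxidation and whose promoter is printed here, rose 1.23-fold from 13.3, 13.1 and 13.7 CPM to 15.4, 15.0 and 17.1 CPM (edgeR adjusted p = 9.73e-03). Ech1, an isomerase for unsaturated chains found in peroxisomes and mitochondria, was at 269, 322 and 293 CPM with DMSO and 374, 384 and 388 CPM with 915. It had the highest counts of the members, and its groups did not overlap (1.34-fold, edgeR adjusted p = 5.55e-05).

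Shortened chains leave the peroxisome as carnitine esters made by Crot, the octanoyltransferase. Crot was at 50.5, 48.2 and 51.6 CPM in the DMSO libraries and at 34.9, 38.3 and 37.1 CPM in the 915 libraries. It was the only called gene of the beta-oxidation group that was lower, with no overlap and a fitted difference of -0.40 ± 0.0600 on the log2 scale (edgeR adjusted p = 7.77e-05), between -0.45 and -0.36 over 13 alternatives.

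Alpha-oxidation removes 1 carbon from phytanic acid, a branched chain from the diet, so that beta-oxidation can follow. Phyh, the hydroxylase that opens the pathway, was at 112, 126 and 122 CPM with DMSO and 185, 176 and 179 CPM with 915, without overlap (log2 fold change 0.63 ± 0.0552, edgeR adjusted p = 3.72e-07). Hacl1, the lyase of the next step, did not pass, with overlapping levels of 14.5 to 15.9 and 12.2 to 15.0 CPM and a 95% interval of -0.29 to 0.11.

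Cat encodes catalase, which removes the hydrogen peroxide that the oxidases make and whose upstream sequence is given earlier. It was at 198, 195 and 229 CPM with DMSO and 273, 279 and 253 CPM with 915. The DMSO libraries were more spread than the 915 libraries, with DMSO library 3 the highest of its group, and the groups did not overlap (0.42 ± 0.0626, 1.34-fold, edgeR adjusted p = 6.90e-05).

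The 3 enzymes of ether lipid synthesis did not move together. Gnpat, the acyltransferase of the opening step, rose 1.54-fold, from 35.9, 34.7 and 34.4 CPM to 54.6, 50.1 and 51.7 CPM (0.63 ± 0.0581, edgeR adjusted p = 7.08e-07). Agps, which swaps the acyl chain for an alcohol to form the ether bond, was lower, at 22.3, 18.95 and 22.95 CPM with DMSO and 17.7, 17.5 and 17.4 CPM with 915 (-0.24 ± 0.0817, edgeR adjusted p = 0.0267). Far1, which makes that alcohol and is known as the rate-limiting enzyme of plasmalogen synthesis, fell from 29.4, 23.9 and 30.1 CPM to 19.4, 20.4 and 18.3 CPM (-0.47 ± 0.0874, edgeR adjusted p = 4.40e-04). In all 3 genes the groups were apart, and in Agps and Far1 DMSO library 2 was the nearest to the 915 libraries. The call of Agps was lost on leaving out any library other than DMSO library 2 (values -0.24 to -0.18; edgeR, limma or DESeq2 adjusted p from 3.89e-03 to 0.124 over 13 alternatives), whereas those of Gnpat and Far1 were kept in every alternative.

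Ratios of genes with like roles were formed within each library, where scaling between libraries cancels. They are ratios of counts, not per length, so the change between groups can be read but not the ratio's own size. Of 10 pairs chosen, 8 were tested and 5 are described, with an exact two-sided permutation test, whose smallest p with 3 against 3 libraries is 0.1. In 3 of the 5 the groups did not overlap, each with an exact p of 0.1 and an adjusted p of 0.2 over the 8 tested. The ratio of Gnpat to Agps was 1.61, 1.83 and 1.498 with DMSO and 3.08, 2.86 and 2.97 with 915. Ehhadh to Hsd17b4 and Pex5 to Pex7 overlapped, with exact p of 0.3 and 0.2.

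The remaining pairs set peroxisomal genes beside mitochondrial enzymes of the same kind of reaction. Crot to Cpt2, the carnitine acyltransferases that release chains from the peroxisome and receive them in the mitochondrion, went from 0.671, 0.586 and 0.623 with DMSO to 0.245, 0.270 and 0.273 with 915, a log2 difference of -1.26. It was the pair with the widest gap of the 8 tested. Hsd17b4 to Hadha, which each carry out the middle steps of a beta-oxidation cycle, went from 0.256, 0.239 and 0.239 to 0.212, 0.218 and 0.202, a log2 difference of -0.22 without overlap.

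**Figure D3:**
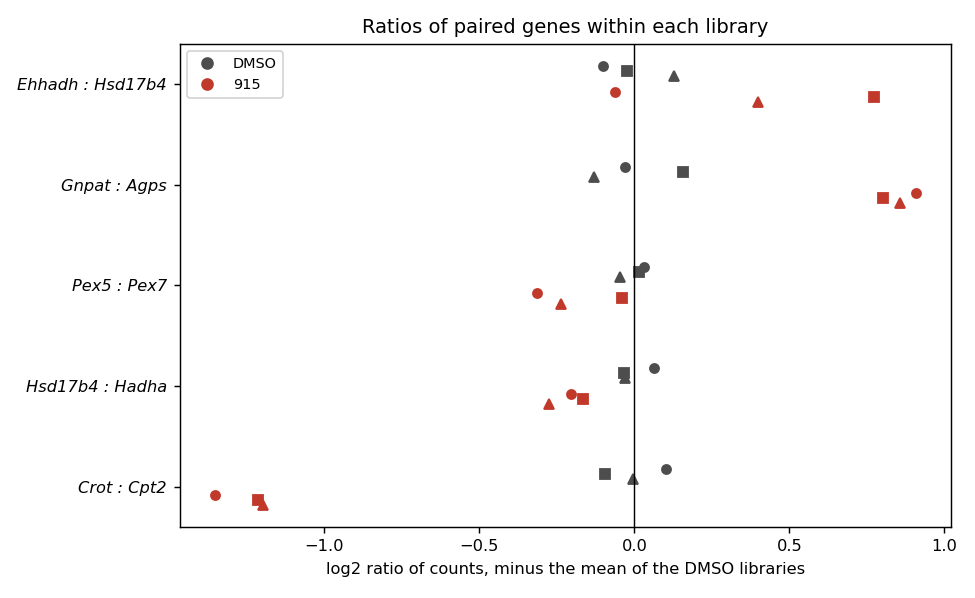
Log2 ratio of counts of 5 gene pairs in each library, shown as the distance from the mean of the DMSO libraries (grey, DMSO; red, 915; circle, square and triangle are replicates 1, 2 and 3). The groups are apart for Gnpat to Agps (0.86), Hsd17b4 to Hadha (-0.22) and Crot to Cpt2 (-1.26), where the numbers are differences of the group means.

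In mitochondrial beta-oxidation 18 of 19 genes (94.7%) were called higher and 0 lower, beside 24.3% and 25.5% of all genes tested. For the peroxisomal genes 17 of 33 were higher. The medians on the log2 scale were 0.21 for the peroxisomal and 0.57 for the mitochondrial genes. The highest with a mean of at least 5 CPM were Cpt1b (1.26), the muscle gate for long chains, Cpt2 (0.86) and Etfb (0.82), an electron carrier. No test of the difference between the lists was made.

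A further 63 names of proteins found in or on peroxisomes were looked up, and 57 matched. Of the 51 tested, 25 (49.0%) were called higher and 6 (11.8%) lower, beside 24.3% and 25.5% of all genes tested. The median of the list was 0.19, against -0.01 over all genes tested. Among called genes with a mean of at least 5 CPM the highest were Acsl1, which activates long-chain fatty acids on several membranes (213 ± 13.8 and 424 ± 18.1 CPM, log2 fold change 1.04), Nudt12, which cleaves NADH (11.6 ± 1.31 and 22.8 ± 0.899 CPM, 1.02), and Mavs, an antiviral adaptor of mitochondria and peroxisomes (46.8 ± 2.74 and 69.7 ± 3.90 CPM, 0.63). Acot4, Acsl6 and Pipox, all scarcer, had larger differences (1.53, 1.19 and -1.10, each called; named after their values were seen). The lowest above the same limit were Mvk, a kinase of cholesterol synthesis (26.2 ± 1.62 and 14.9 ± 0.758 CPM, log2 fold change -0.76), Acsl4, which prefers arachidonate (-0.41), and Abcd4, a relative of the peroxisomal transporters that serves cobalamin export from lysosomes (-0.38). Several of these, Mvk and Abcd4 among them, act outside peroxisomal fatty acid breakdown.

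Peroxisomal lipid genes are known targets of the PPAR receptors, which act as partners of the RXR receptors. Of 13 tested receptors and coregulators 10 (76.9%) were called higher and 1 (7.69%) lower, beside 24.3% and 25.5% of all genes tested. Ppara, the form that drives fatty acid oxidation, was at 10.1 ± 0.681 CPM with DMSO and 18.6 ± 1.13 CPM with 915 (log2 fold change 0.93 ± 0.0870, edgeR adjusted p = 7.78e-07). Ppard was at 53.6 ± 1.84 and 59.4 ± 4.61 CPM (0.20, edgeR adjusted p = 0.0208). Pparg, at 2.52 ± 0.353 and 2.88 ± 0.466 CPM, did not pass (edgeR adjusted p = 0.328), nor did the coactivator gene Ppargc1a (0.07, edgeR adjusted p = 0.448). Among the others with a mean of at least 5 CPM the highest were Esrrg (0.97), which encodes an ERR, and Rxrg (0.79). Esrrb, a further ERR gene, was scarcer and was also called higher, at 1.31 ± 0.474 and 3.28 ± 0.208 CPM (1.37, edgeR adjusted p = 3.46e-04), and is named after its values were seen. The part of the receptors in the peroxisomal results was not tested.

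**Figure D4:**
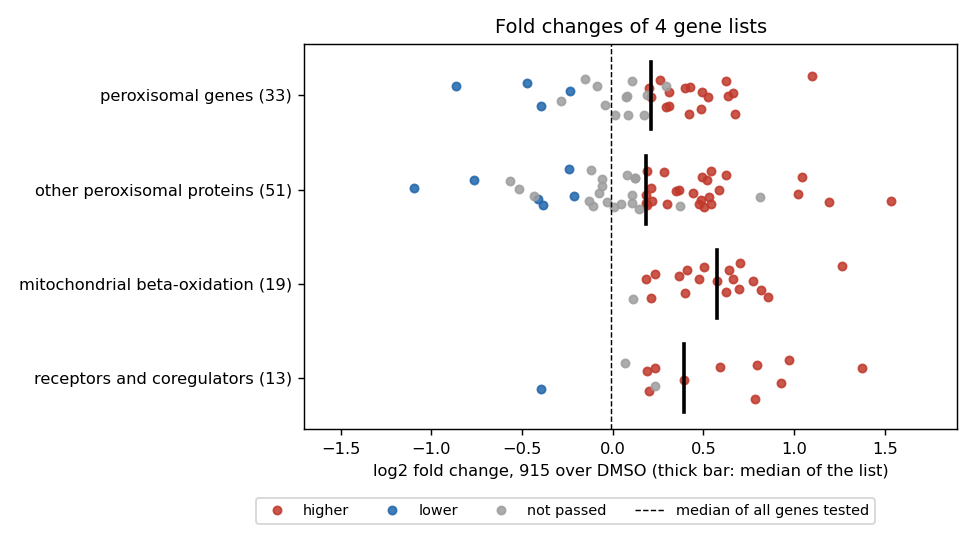
Log2 fold changes, 915 over DMSO, of the tested genes of 4 lists, with the median of each as a thick bar and the median of all genes tested as a dashed line. The medians are 0.21 for the 33 peroxisomal genes, 0.19 for 51 other peroxisomal proteins, 0.57 for 19 genes of mitochondrial beta-oxidation and 0.39 for 13 receptors and coregulators.

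Replicates were close for most members. Among those of at least 5 CPM the median coefficient of variation was 5.97% with DMSO and 4.57% with 915. Of the 12 tested members that did not pass, 11 had a 95% interval within 1.5-fold in either direction, and the exception was Acox2. For those 11 a change larger than that lies outside the interval.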

How the data were processed

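RNA from 6 cultures was sequenced, 3 libraries per group. The submitters' processing notes name STAR 2.5.1a, Subread featureCounts 1.4.6-p5 and the rat build Rnor_6.0. For strand and multi-mapped reads the setting is not given in the sources used here; genes that overlap or have near copies are therefore uncertain. The table of raw counts deposited by the authors has 22641 rows, of which 993 repeated an earlier identifier and its counts and were dropped. The deposited CPM values are those counts scaled by 1 total per library, as the ratio of the tables showed. These totals exceed the table sums, which hold 93.1% to 93.7% of them.

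Counts were filtered with filterByExpr (14253 genes kept), scaled by TMM and fitted with edgeR 4.0.16 (R 4.3.3; limma 3.58.1 and DESeq2 1.42.0 for alternatives) on group alone, two-sided, and adjusted by Benjamini-Hochberg across the 14253 genes. SE is the log2 fold change divided by the square root of F. The procedure was also run on simulated counts in which few genes changed, equally in both directions. That run does not check the scaling where many genes change, as they did here. RefSeq on GRCr8 was used for names and promoters. No protein sequences were used, so the search for import signals that had been planned was not run.

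The members, lists and gene pairs were chosen with earlier results of these data known. Counts cover all members; a few items are not reported here by name, so 29 of the 33 tested members are described one by one. From each other list up to 3 genes at each end were named among those called with a mean of at least 5 CPM, and Ppara, Ppard, Pparg and Ppargc1a whatever their values. The alternatives were other scalings, tools, no filter, a replicate block and leaving out each library.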

Additional observations from a re-analysis of the deposited data

How the results depend on the processing

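Across 13 alternatives, 14 of the 17 higher members and 2 of the 4 lower ones (Crot and Far1) kept their call in every one; Ehhadh, Acox3, Pex3, Abcd2 and Agps lost theirs in at least 1, with values given beside each gene, and Pex5 and Pex11a gained one in 1 each. No called member changed sign. The count of higher members was 15 to 17. The count of lower members was 2 to 4 on leaving out 1 library at a time, and was 2 without DMSO library 1 or without 915 library 3. The correlations of same-numbered deviations from the group means were -0.03, -0.11 and -0.09. Deviations from a mean of 3 libraries depend on each other, so these values cannot tell whether same-numbered libraries shared an isolation. With a replicate block 15 members were higher and 3 lower, against 17 and 4, and 2996 and 3197 of all genes, against 3460 and 3636; Ehhadh, Acox3 and Agps did not pass in that fit (edgeR adjusted p = 0.0506, 0.0854 and 0.0531). With the authors' library totals 2905 genes were higher and 4192 lower, and members were 15 and 4. Each pair ratio kept its direction on leaving out any 1 library. Depth limits Ehhadh, Acox2, Abcd2 and Pex11g, whose means were under 5 CPM, and Pex5l. Why single calls moved was not tested.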

Other observations

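Several peroxisomal genes known from liver and kidney were at or near the floor of 3 counts in both groups (named after their values were seen). Agxt had 0 CPM in all libraries, and Hao1, Hao2, Uox and Ddo averaged 0.0483, 0.0819, 0.0717 and 0.180 CPM with DMSO and 0, 0.0611, 0.116 and 0.145 CPM with 915; none of these 5 was tested. The bile acid transferase gene Baat and the fatty acid transporter gene Slc27a2 were at 0.353 ± 0.0979 and 0.305 ± 0.0791 CPM with DMSO and at 0.447 ± 0.117 and 0.201 ± 0.0491 CPM with 915, and did not pass. Acot4, a thioesterase of the organelle, was scarce but called higher, with 0.344 ± 0.105 CPM in DMSO and 0.975 ± 0.160 CPM in 915 cultures (1.53 on the log2 scale, edgeR adjusted p = 2.15e-03).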
